A study of Mus musculus with 3 samples.

Results

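Transcripts of 10 genes that build and control chromatin loops were followed in mpkDCT4a cells, an immortalised mouse line from the distal convoluted tubule, the kidney segment that fine-tunes salt uptake. The genes were Ctcf, the cohesin subunits Smc1a, Smc3, Rad21, Stag1 and Stag2, the loader gene Nipbl, the release factor gene Wapl, and the regulators Pds5a and Pds5b. They were taken by name from a table of 55487 genes, and each of the 10 names matched 1 Ensembl identifier in GENCODE M21. The series, on the three-dimensional arrangement of gene regulation in this tubule segment, is represented here by 3 RNA libraries labelled as replicates of the wild-type line, so that no second condition is compared. The cells grew at 37 °C with 2% fetal calf serum, dexamethasone (50 nM), triiodothyronine (1 nM), epidermal growth factor (10 ng/ml), insulin (5 µg/ml) and 20 mM glucose, so every value belongs to cells under these hormones and in the presence of serum. The design can show how much of each transcript the line carried and how far the replicates differed.

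Cohesin is a ring of the ATPases SMC1A and SMC3 closed by the kleisin RAD21, to which a STAG protein binds. It is loaded and driven along DNA by NIPBL, reels in the fibre to form a loop, and stops where CTCF is bound in the right orientation. WAPL, with the help of PDS5 proteins, opens the ring and frees the DNA, and the same rings hold sister chromatids together from replication to anaphase, so that cycling cells need them for more than loops.

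The deposited table summed to 436983, 482418 and 443192 counts for replicates 1, 2 and 3, low totals of which it is not known whether they hold every read, so that 1 count equals 2.31, 2.07 and 2.24 CPM, the count scaled to library size. For a gene without a count in any library counting alone would allow 2.20 CPM, taken as 3 counts over all libraries, and all intervals given here cover counting error only. The mitochondrial genes mt-Co2, mt-Co3, mt-Atp6, mt-Atp8, mt-Nd3 and mt-Nd4l, which every cell uses, were listed at 0 in all 3 libraries, while mt-Co1 had 3393 counts over all libraries. A gene listed at 0 in this table therefore cannot be taken as not expressed, and no limit on its expression is drawn here. Of 12 distal convoluted tubule markers 5 reached a mean of 1 CPM, with summed levels of 66.3 to 94.1 CPM per library. These were Wnk4 at 45.2 CPM, Cnnm2 at 19.8 CPM, Trpm6 at 8.84 CPM, Kcnj10 at 6.67 CPM and Egf at 2.23 CPM. The other 7 were listed at 0, namely the defining cotransporter gene Slc12a3 and Pvalb, Klhl3, Calb1, Emx1, Sall3 and Tmem52b. All 8 proliferation markers lay at 100 CPM or more, among them Mki67 at 643 ± 62.8 CPM (SD, n = 3), and their summed level was 3168 to 3514 CPM. Of the leukocyte markers 2 of 6 reached 1 CPM (summed 37.3 to 62.7 CPM), Csf1r at 45.8 CPM and Cd68 at 3.72 CPM. Ptprc, Lyz2, Adgre1 and Cd3e were listed at 0. Of the endothelial markers 1 of 5 reached 1 CPM, Flt1 (9.23 to 11.2 CPM), with Pecam1, Cdh5, Kdr and Tek at 0. Of 8 fibroblast and smooth muscle markers 5 did, summing to 1490 to 1690 CPM, of which Vim, also made by many cultured epithelial cells, held 1552 ± 98.4 CPM, while Lum was listed at 0. The part of any other cell type in the levels below was not tested.

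All 10 genes were expressed, and without regard to length all 10 were above 100 CPM, a level that 12.2% of protein-coding genes reached. In such bulk libraries fewer expressing cells and less RNA per cell cannot be told apart. A mean of 1 CPM was reached by 50.6% of protein-coding genes. Together the 10 genes took 1329, 1457 and 1456 counts in replicates 1, 2 and 3, or 0.304% (95% Wilson interval 0.288 to 0.321), 0.302% (0.287 to 0.318) and 0.329% (0.312 to 0.346) of all counts. Long transcripts give more fragments, and the exons of these genes covered 4232 to 19335 bases, against a median of 4644 for expressed protein-coding genes. Ratios between genes and their order are therefore given on the scale of TPM, which divide the counts by the length of all annotated exons of the gene and scale every library to the same sum. On that scale the 10 genes had 66.0 to 543 TPM with a median of 120 TPM, and all 10 lay above the median of the expressed protein-coding genes, 31.4 TPM. The lowest of them, Stag1, stood at or above 86.1% of all protein-coding genes and the highest, Rad21, at or above 99.2%.

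**Figure D1:**
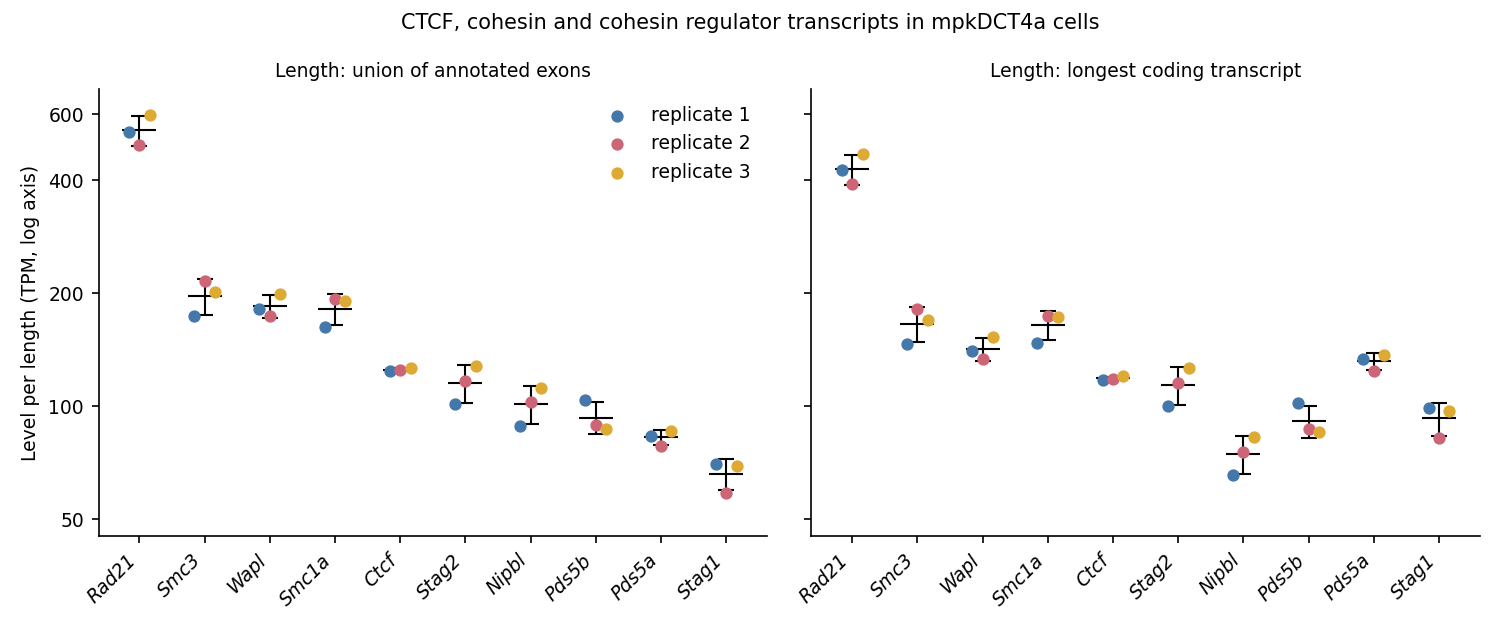
Level of each gene in each library in TPM on a log axis, with points for the 3 replicates, a bar for the mean and whiskers for the SD; the left panel divides counts by the union of annotated exons and the right panel by the longest coding transcript. Rad21 lies apart at 497 to 596 TPM on the left, and Pds5a moves most on the log scale between the panels, with 82.6 TPM on the left and 132 TPM on the right.

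Rad21 was the most abundant transcript of the ring. RAD21 is the kleisin, the link that separase cuts at anaphase to let sister chromatids part. The gene (ENSMUSG00000022314) lies on the minus strand of GRCm38 at chr15:51962240-51991747. It had 272, 274 and 303 counts in replicates 1, 2 and 3, or 538, 497 and 596 TPM. In every library it exceeded each of the other 9 genes, whose highest single value was 216 TPM. Its mean was 543 ± 49.5 TPM (SD, n = 3), from 849 counts with an exact Poisson interval of 793 to 908.

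The transcripts of the SMC partners stood next in the ring and could not be separated from each other. SMC1A and SMC3 pair at a hinge, and their ATPase heads are bridged by RAD21. Smc3 (ENSMUSG00000024974, plus strand, chr19:53600398-53645833) had 115, 156 and 134 counts, or 174, 216 and 201 TPM. Smc1a (ENSMUSG00000041133, plus strand, chrX:152016428-152062694) had 112, 145 and 132 counts, or 162, 193 and 190 TPM. Both were lowest in replicate 1 and highest in replicate 2, and their values overlapped across the libraries. Per length Smc1a had 0.923 times the summed counts of Smc3, with a 95% exact binomial interval of 0.801 to 1.06 that holds 1, although Smc1a was the lower in 3 of 3 libraries. Rad21 had 3.09, 2.30 and 2.96 times the level of Smc3 in the 3 libraries, a ratio of 2.74 (2.44 to 3.10) over all counts, and 2.98 times that of Smc1a (2.64 to 3.36). By the median coding transcript the ratio to Smc3 was 4.29. The smallest p that an exact sign-flip test can give with 3 libraries is 0.25, the value of these 3 ratios (two-sided, 0.324 after Benjamini-Hochberg adjustment over 22 ratios), so the ratios rest on counting intervals and on the direction in the single libraries. A ratio is called different from 1 from here on where the interval leaves out 1 and all 3 libraries have the same direction.

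Both mitotic STAG genes were expressed, with Stag2 above Stag1. STAG1 and STAG2 are alternative subunits that contact CTCF and DNA, and a cohesin ring carries one of them. Stag2 (ENSMUSG00000025862, plus strand, chrX:42149317-42277185) had 100, 126 and 127 counts, or 101, 117 and 128 TPM. Stag1 (ENSMUSG00000037286, plus strand, chr9:100597798-100959375) had 99, 90 and 98 counts, or 70.3, 58.7 and 69.2 TPM. Stag2 was higher in each library, and the lowest Stag2 value lay above the highest Stag1 value. Stag2 thus made up 59.0, 66.6 and 64.9% of the summed STAG level per length (63.5 ± 3.99%, SD, n = 3), and 50.3, 58.4 and 56.5% with the longest coding transcript as the length. With the median coding transcript, which has 1012 bases for Stag1, the ratio of Stag2 to Stag1 turned to 0.377, against 1.75 (1.49 to 2.05) with all exons and 1.23 (1.05 to 1.45) with the longest. Together Stag1 and Stag2 reached 171, 176 and 197 TPM. That sum was 0.334 times the level of Rad21 (0.301 to 0.371, normal approximation; 0.754 without a length) and 0.917 times that of Smc3, with an interval of 0.809 to 1.04 that holds 1. By the longest coding transcript the sum was 0.483 times Rad21 and 1.24 times Smc3 (1.10 to 1.41), and by the median coding transcript it was 1.09 times Rad21 and 4.68 times Smc3.

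The reads of the paralogs could be told apart by sequence. Over 3710 aligned coding bases Stag2 and Stag1 were 71.9% identical, and Pds5a and Pds5b were 70.2% identical over 3902, with a longest identical run of 23 bases in either pair. No stretch of 50 bases of any of these 4 genes occurs in its paralog. The coding sequence around that run, from GENCODE M21 transcripts on GRCm38, is shown with capitals at the bases that differ between the paralogs (15 of 75 for the STAG pair and 12 of 75 for the PDS5 pair). It shows how often a fragment meets a distinguishing base around the longest identical run. The window with the fewest differences was not searched for.
Stag2 (coding bases 1112 to 1186): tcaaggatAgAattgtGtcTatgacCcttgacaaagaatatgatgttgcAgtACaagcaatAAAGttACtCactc
Stag1 (coding bases 1121 to 1195): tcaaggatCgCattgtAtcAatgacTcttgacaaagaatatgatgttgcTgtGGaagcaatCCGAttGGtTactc
Pds5a (coding bases 2837 to 2911): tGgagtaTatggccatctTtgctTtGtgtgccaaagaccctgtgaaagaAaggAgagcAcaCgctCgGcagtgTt
Pds5b (coding bases 2810 to 2884): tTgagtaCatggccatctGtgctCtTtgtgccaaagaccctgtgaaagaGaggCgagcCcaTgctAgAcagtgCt

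Per length, the loader transcript Nipbl stood below the SMC transcripts. NIPBL activates the cohesin ATPase and is haploinsufficient in human Cornelia de Lange syndrome. Nipbl (ENSMUSG00000022141, minus strand, chr15:8290617-8444463) had 100, 126 and 127 counts, or 88.8, 103 and 112 TPM. These counts equal those of Stag2 in all 3 libraries, although the genes lie on different chromosomes and share no stretch of 50 bases. Of 1482 genes with at least 225 counts, 4 shared all 3 counts with another gene, Stag2 and Nipbl being a pair of them. Nipbl had 0.513 times the level of Smc3 (0.443 to 0.593) and was the lower in 3 of 3 libraries. Without a length the ratio was 0.872 (0.754 to 1.01) and no longer called. Mau2, whose product forms the loading complex with NIPBL, had 24, 34 and 32 counts and 26.6 ± 3.98 TPM, so that Nipbl exceeded its partner 3.80-fold (3.01 to 4.85). The fold was 2.23 (1.77 to 2.85) by the longest and 1.71 (1.35 to 2.18) by the median coding transcript.

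The release factor transcript Wapl exceeded Nipbl. WAPL removes cohesin from chromatin and thereby limits loop length. Wapl (ENSMUSG00000041408, plus strand, chr14:34673928-34747983) had 144, 150 and 158 counts, or 182, 174 and 198 TPM. Its level was 2.05, 1.69 and 1.77 times that of Nipbl in the 3 libraries, or 1.82 times over all counts (1.58 to 2.10), and 2.97 times by the median coding transcript. Cdca5 encodes sororin, which protects cohesin from WAPL after replication, and had 29, 31 and 25 counts and 108 ± 8.84 TPM. Wapl had 1.71 times its level (1.35 to 2.18), 2.65 times by the median coding transcript and 5.32 times without a length.

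The order of Pds5a and Pds5b turned with the transcript length used. PDS5 proteins bind RAD21, help WAPL in release and are needed for cohesin to stop at CTCF sites. Pds5a (ENSMUSG00000029202, minus strand, chr5:65605721-65698273) had 193, 197 and 200 counts, the second most of the 10 genes. Pds5b (ENSMUSG00000034021, plus strand, chr5:150673739-150810690) had 122, 114 and 103 counts. Divided by all annotated exons, Pds5a had 83.5, 78.2 and 86.0 TPM and Pds5b 104, 89.0 and 87.1 TPM, a ratio of 0.886 (0.774 to 1.02) that holds 1. With replicate 3 left out the ratio was 0.841 and its interval left out 1. The annotated exons of Pds5a cover 19335 bases and include those of transcripts that retain introns, whereas its longest coding transcript has 8934 bases. Divided by the longest coding transcripts, Pds5a had 134, 124 and 137 TPM and Pds5b 102, 86.7 and 85.2 TPM, a ratio of 1.44 in the other direction (1.26 to 1.66). Their sum likewise was 0.952 times Wapl by all exons (0.849 to 1.07) and 1.57 times Wapl by the longest coding transcript (1.40 to 1.76).

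Ctcf varied least of the 10 transcripts between the libraries, with a spread below counting error. Its coefficient of variation of CPM was 0.828%, against 11.5% from counting alone, so a steadier transcript was not shown. CTCF is the zinc-finger protein that binds the anchors of most loops and halts cohesin there. Ctcf (ENSMUSG00000005698, plus strand, chr8:105636568-105682922) had 72, 79 and 74 counts, the fewest of the 10 genes, and 124, 125 and 127 TPM. Per length its mean of 125 ± 1.40 TPM was 0.231 times that of Rad21 (0.198 to 0.268) and 0.633 times that of Smc3 (0.536 to 0.747), and it was lower than either in 3 of 3 libraries. The exons of Ctcf overlap those of the lincRNA gene Gm5914 by 370 bases and those of Agrp by 114 bases on the opposite strand. Both genes were listed at 0. The strand setting of the counting was not given, so this does not show whether the overlap altered the counts of Ctcf.

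**Figure D2:**
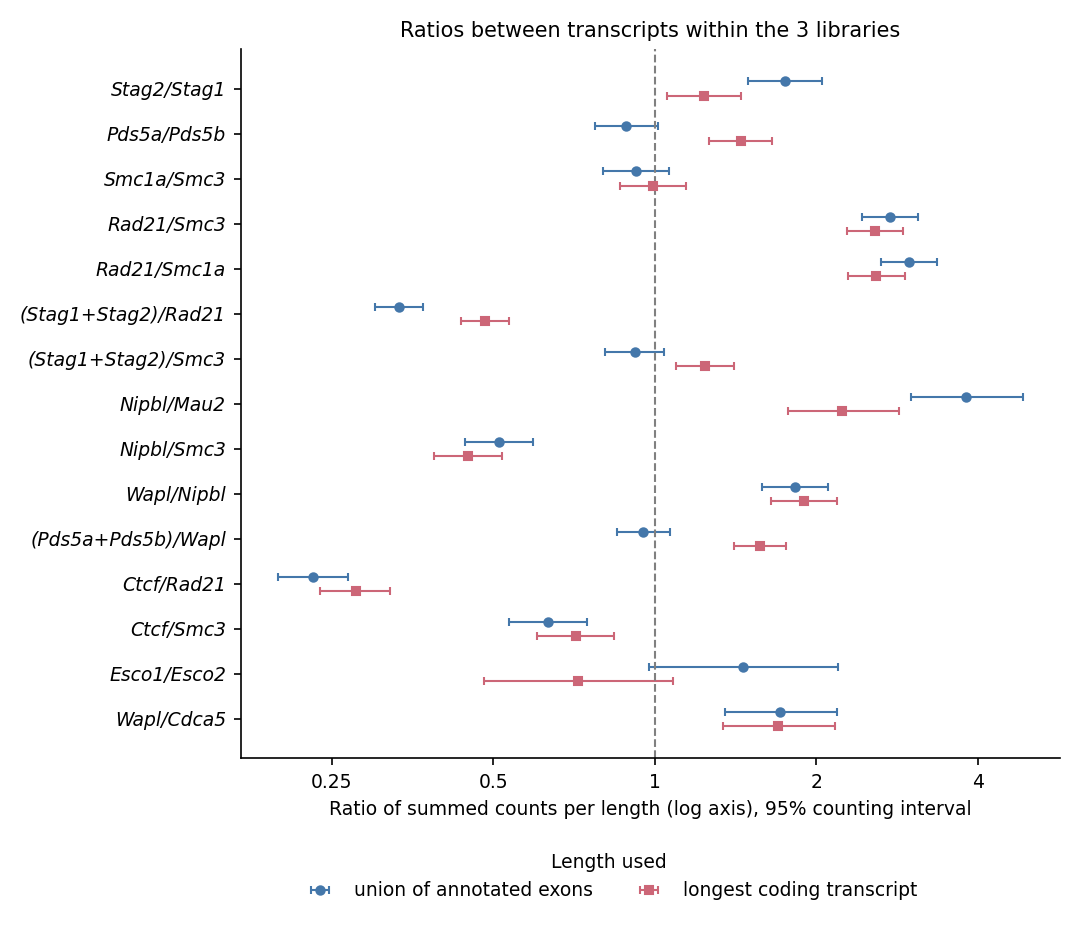
Ratio of the first transcript to the second per length on a log axis, from the counts summed over 3 libraries, with 95% counting intervals and a dashed line at 1; circles divide by all annotated exons and squares by the longest coding transcript. Rad21 over Smc3 lies at 2.74 and 2.57, whereas Pds5a over Pds5b lies on either side of the line at 0.886 and 1.44.

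In the order of TPM the genes ran from Rad21 over Smc3, Wapl, Smc1a, Ctcf, Stag2, Nipbl, Pds5b and Pds5a to Stag1. Of the 9 neighbouring pairs 3 were called different, namely Rad21 over Smc3, Smc1a over Ctcf at 1.46-fold (1.23 to 1.72) and Pds5a over Stag1 at 1.25-fold (1.09 to 1.45, but 0.502 by the median coding transcript and 2.06 without a length). Genes further apart in the order are not covered by these pairs. By all annotated exons Ctcf, for example, was above Pds5a in every library, at 124, 125 and 127 against 83.5, 78.2 and 86.0 TPM. On that length the neighbouring pairs among Smc3, Wapl and Smc1a were not called. Nor were the neighbouring pairs in the run of Ctcf, Stag2, Nipbl, Pds5b and Pds5a. By the longest coding transcript several of these pairs were called, namely Smc3/Wapl at 1.17 (1.02 to 1.34), Wapl/Smc1a at 0.858 (0.748 to 0.985), Stag2/Nipbl at 1.53 (1.31 to 1.77), Nipbl/Pds5b at 0.820 (0.704 to 0.954) and Pds5a/Pds5b at 1.44. By the median coding transcript Smc3/Wapl and Wapl/Smc1a were called the other way, at 0.751 (0.655 to 0.861) and 1.34 (1.17 to 1.54). Of all 45 pairs among the 10 genes 37 were called different by all annotated exons and 39 by the longest coding transcript, 31 of them by both in the same direction. By the longest coding transcript Rad21 and Smc3 kept the first and second place, Nipbl came last at 74.6 ± 8.56 TPM and Pds5a moved up to the fifth place. Of the 15 ratios between genes of linked roles, 10 were called different by all annotated exons, and each of these 10 was called in the same direction by the longest coding transcript.

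No difference between the replicates beyond counting error was detected for the 10 genes. When the 3 counts of a gene were set against the library sizes in a chi-square test, adjusted over 12473 expressed genes after Benjamini and Hochberg, 0 of the 10 genes were called, against 0.0401% of all genes tested. At an unadjusted p under 0.05 it also called 0 of 10, against 4.89% of all genes, and the median statistic per degree of freedom was 1.16 for the 10 genes and 0.726 for all genes tested. For the 1340 genes with 225 to 849 counts, the range of the 10 genes, the share was 7.16% and the median 0.777. The smallest p of the 10 genes was that of Rad21 (chi-square p = 0.0985, adjusted p = 0.902), and with replicate 1 left out its unadjusted chi-square p was 0.0314. The coefficient of variation of CPM ran from 0.828% for Ctcf to 11.2% for Pds5b. It was above the value that counting alone gives in 6 genes and below it in 4, Smc1a, Wapl, Pds5a and Ctcf. For Ctcf counting alone gives 11.5%, and 6 of 1340 genes with 225 to 849 counts, Ctcf included, had a chi-square statistic as low as that of Ctcf. Replicate 3 held the highest CPM of 5 genes, replicate 1 of 3 and replicate 2 of 2, so no library was high throughout. Whether each replicate was a culture of its own is not stated in the labels, so these tests cover no more than the spread of the libraries at hand, which may be technical.

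**Figure D3:**
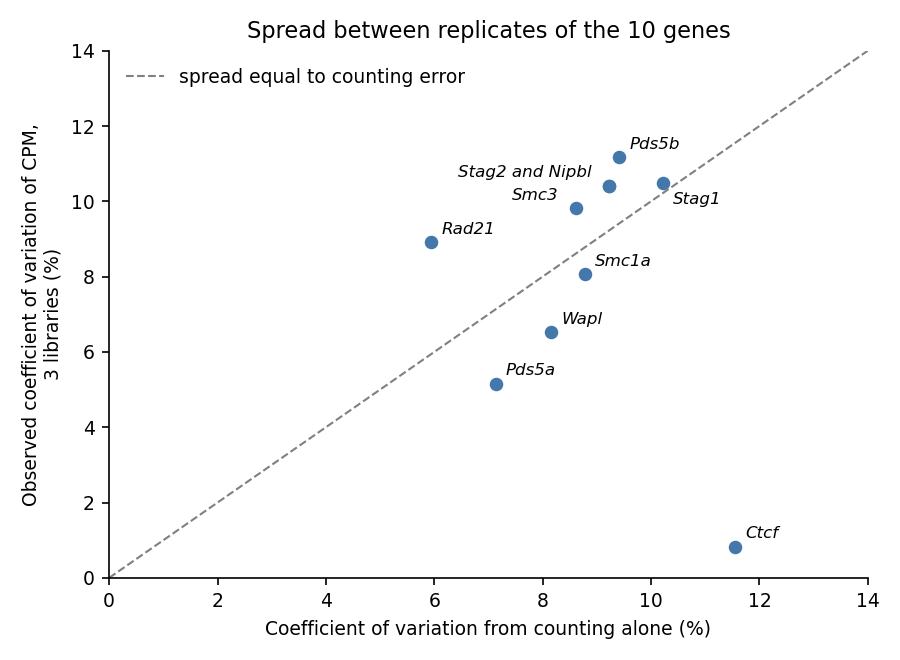
Observed coefficient of variation of CPM over the 3 libraries against the value expected from counting alone, both in percent, 1 point per gene, with Stag2 and Nipbl at the same point because their counts are equal; the dashed line marks equality. Rad21 lies above the line at 8.92% against 5.94%, and Ctcf far below it at 0.828% against 11.5%.

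The other genes that control cohesin had a lower median level, with overlap in single genes. By all exons Cdca5, at 108 TPM, stood above Nipbl, Pds5b, Pds5a and Stag1, and Sgo1, at 70.1 TPM, above Stag1. By the longest coding transcript Cdca5 and Sgo1 had 83.6 and 54.3 TPM, both below the 92.7 TPM of Stag1. On that length Cdca5 was still above Nipbl, which had 74.6 TPM. In a list of 10 partners and regulators all 10 reached 10 CPM and 1 reached 100 CPM, levels that 40.8% and 12.2% of protein-coding genes reached. Their median was 41.5 TPM, against 120 TPM for the 10 genes above and 1.51 TPM for all protein-coding genes. Of the acetyltransferases that lock cohesin on sister chromatids, Esco1 had 18, 12 and 25 counts and 29.5 ± 11.4 TPM, and Esco2, which acts in S phase, had 17, 15 and 17 counts and 20.0 ± 2.31 TPM. Their ratio of 1.46 (0.977 to 2.20) was not called. It was 1.65 and called with replicate 2 left out, and 0.719 by the longest coding transcript. Hdac8, the deacetylase that recycles SMC3, was the lowest of the list with 3, 7 and 5 counts and 8.30 ± 2.97 TPM. Espl1, which encodes separase, had 38, 60 and 62 counts and 49.3 ± 11.7 TPM, and Pttg1, which encodes its inhibitor securin, had 14, 17 and 10 counts and 55.1 ± 12.2 TPM. The protectors of centromeric cohesin, Sgo1 and Sgo2a, had 70.1 ± 3.87 and 52.5 ± 4.89 TPM, and the mitotic kinase gene Haspin had 33.7 ± 1.76 TPM (SD, n = 3 each). By the chi-square test above 0 of these 10 genes were called, and 0 had an unadjusted p under 0.05.

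The germline versions of these genes were listed at 0. Ctcfl, the testis paralog of Ctcf, and the meiotic cohesin genes Smc1b, Rad21l, Rec8 and Stag3 had 0 counts in all 3 libraries, which, as for the mitochondrial genes above, does not show that they are not expressed.

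**Figure D4:**
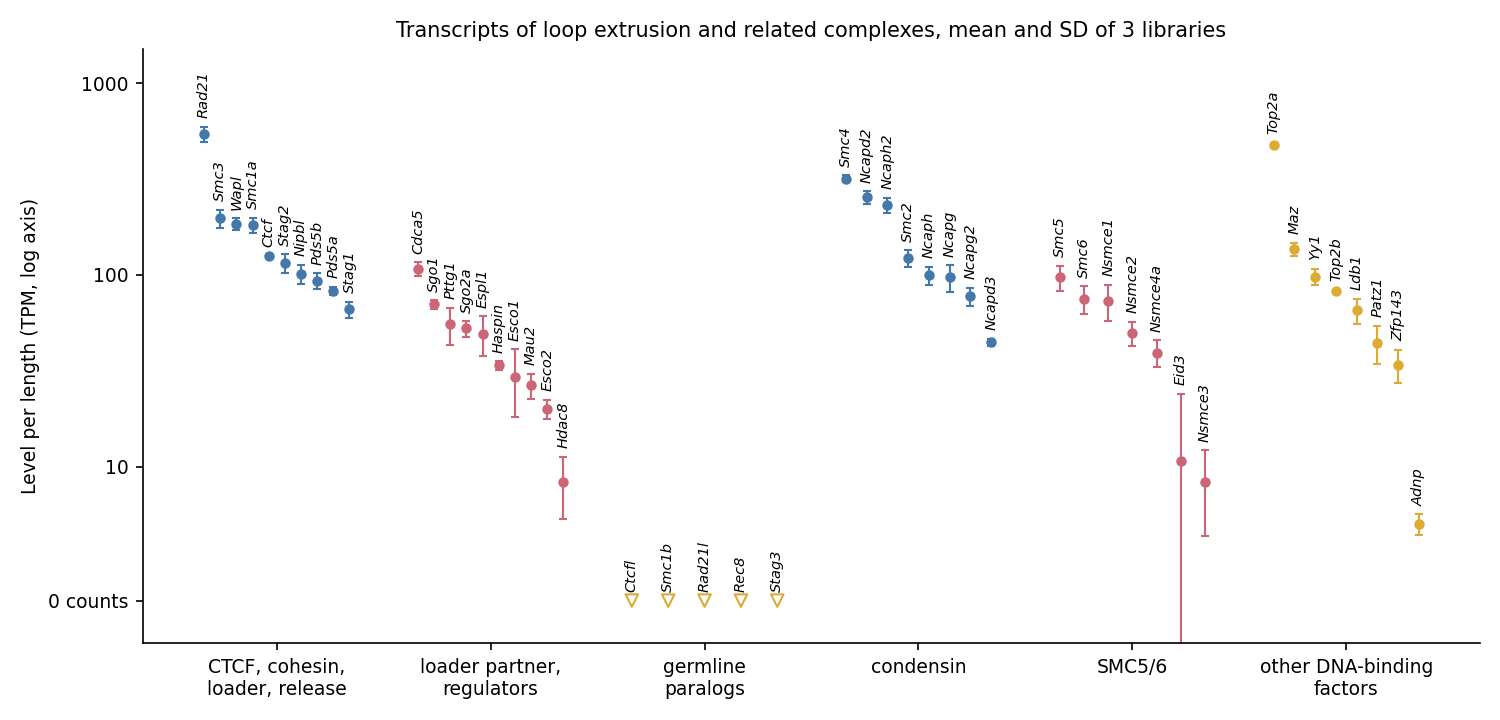
Mean level in TPM on a log axis with the SD of 3 libraries, 1 point per gene, for the 10 genes at the left and 5 lists of related genes; open triangles mark genes with 0 counts, and the lower whisker of Eid3 runs off the axis. The 5 germline paralogs are the only genes plotted with 0 counts, and Rad21 at 543 TPM is the highest point by all annotated exons. By the longest coding transcript, which is not plotted, Top2a had 603 TPM and Rad21 429 TPM.

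Other SMC complexes were expressed alongside cohesin. As background, 40.8% of protein-coding genes reached 10 CPM and 12.2% reached 100 CPM. Condensin compacts chromosomes in mitosis, and all 8 of its genes reached 10 CPM, 7 of them 100 CPM, with a median of 111 TPM. The highest were Smc4 at 317 ± 13.2 TPM, Ncapd2 at 253 ± 19.4 TPM and Ncaph2 at 232 ± 21.1 TPM. The SMC5/6 complex acts in repair and replication, and of its 7 genes 6 reached 10 CPM and 2 reached 100 CPM, with a median of 49.9 TPM. By all exons the highest were Smc5 at 97.1 ± 14.6 TPM, Smc6 at 74.9 ± 12.1 TPM and Nsmce1 at 73.1 ± 15.6 TPM, and by the longest coding transcript Smc6 at 123, Nsmce4a at 102 and Smc5 at 85.5 TPM. Of 8 other factors that bind loop anchors or relieve torsion 7 reached 10 CPM, with a median of 73.5 TPM, and by all exons the highest were the topoisomerase gene Top2a at 474 ± 14.2 TPM, Maz at 136 ± 10.9 TPM and Yy1 at 97.8 ± 9.64 TPM. By the longest coding transcript Top2a had 603 TPM, above the 429 TPM of Rad21, and Top2b, with 85.3 TPM, stood above Yy1, with 74.9 TPM. Each gene of these lists was above 1 CPM, and 1 of them, Smc6, had an unadjusted p under 0.05 between replicates (chi-square p = 0.0361, adjusted p = 0.902 over all genes). Differences in level between lists were not tested.

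The promoters at hand were rich in CpG, a feature that the choice of genes did not use. RefSeq promoters on GRCm38.p6, 250 bases before to 50 after the start, were given for 7 of the 10 genes (Ctcf, Pds5a, Pds5b, Smc1a, Smc3, Stag1 and Wapl). They held 23 to 55 CpG dinucleotides with a median of 41, against a median of 7 over 32851 promoters of expressed and silent genes alike, and 73.7% G and C in the median, against 52.7%. CpG-rich promoters are usual for genes that most cells express. The RefSeq starts of Pds5a, Pds5b and Stag1 lie inside the gene bounds given above from GENCODE M21. Part or all of the 250 bases before these starts therefore lies within the annotated gene. The promoters with the most and the fewest CpG of the 7 are printed over their 250 bases before the start, with CpG in capitals, to show the range.
Pds5a (chr5:65698237-65698486, minus strand): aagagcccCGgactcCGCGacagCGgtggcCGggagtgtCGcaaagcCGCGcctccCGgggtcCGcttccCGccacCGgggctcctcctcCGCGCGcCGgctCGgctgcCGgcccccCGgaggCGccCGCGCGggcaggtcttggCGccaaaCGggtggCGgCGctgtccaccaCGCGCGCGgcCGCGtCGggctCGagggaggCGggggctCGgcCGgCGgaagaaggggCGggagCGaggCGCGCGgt
Smc1a (chrX:152016178-152016427, plus strand): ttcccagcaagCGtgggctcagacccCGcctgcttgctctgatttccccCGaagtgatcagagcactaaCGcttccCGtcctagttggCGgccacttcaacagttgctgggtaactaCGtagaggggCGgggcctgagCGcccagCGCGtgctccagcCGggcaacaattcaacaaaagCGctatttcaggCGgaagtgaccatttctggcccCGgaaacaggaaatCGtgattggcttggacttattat

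Short motifs were searched on both strands of the 300 bases. The E2F letters TTCCCGC occurred in 3 of the 7 promoters (Pds5a, Smc1a and Stag1) and in 4.60% of all promoters. The letters AGGGGGC, part of the CTCF motif, occurred in that of Pds5b only, and in 10.6% of all promoters. The letters AANATGG, part of the YY1 motif and chosen after the sequences had been read, occurred in 4 (Ctcf, Pds5b, Smc3 and Stag1) and in 16.1% of all. The ETS letters CCGGAAG, the NRF1 letters GCGCATG, the YY1 letters AAGATGG, which AANATGG contains, and the TATA letters TATAAA occurred in none of the 7, and in 8.86%, 3.91%, 6.34% and 13.6% of all promoters. The 7 promoters were richer in G and C than the whole set, with a median of 73.7% against 52.7%. The shares over all promoters are therefore not a background of like composition, and enrichment was not tested. Matches to such short letters are a description and not binding sites. The 250 bases before the RefSeq start of Pds5b are printed with the CTCF letters and, on the other strand, the YY1 letters in capitals. By GENCODE M21 these YY1 letters lie inside the gene.
Pds5b (chr5:150673577-150673826, plus strand): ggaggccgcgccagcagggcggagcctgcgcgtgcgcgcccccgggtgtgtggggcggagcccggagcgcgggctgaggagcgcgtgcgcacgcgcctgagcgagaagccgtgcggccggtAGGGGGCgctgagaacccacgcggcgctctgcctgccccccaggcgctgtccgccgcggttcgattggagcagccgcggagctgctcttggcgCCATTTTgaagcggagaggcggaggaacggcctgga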

How the data were processed

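Total RNA (500 ng) depleted of ribosomal RNA and fragmented to about 300 bp was sequenced from 3 libraries, per the labels. The authors deposited raw whole-number counts per Ensembl gene. The submitters' processing notes name STAR, HTSeq and the build mm10, without versions; the settings, the strand and the annotation behind the counts were not given. Symbols and exon lengths came from GENCODE M21 (55227 of 55487 identifiers matched; 0.0230% of counts did not). Columns were matched to replicates by number.

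With 1 group no test between conditions could be made. CPM used library sizes scaled by TMM with edgeR 4.0.16 (R 4.3.3); TPM used the union of annotated exons. DESeq2 1.42.0 size factors, library totals, other lengths, pseudocounts (0.5 in the log2 ratios), filters and each replicate left out were alternatives. The chi-square test was run at a mean of 1 CPM or more. It was also run on simulated data, like the ratio intervals, with an outcome that is not reported here. Python 3.11.15 was used with scipy 1.17.1, pandas 2.3.3 and biopython 1.88.

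On strand, mt-Nd6, on the minus strand of the mitochondrial genome, had 257 counts. Of the plus-strand genes mt-Nd1, mt-Nd2, mt-Co1, mt-Nd4, mt-Nd5 and mt-Cytb had 457 to 3393, and mt-Co2, mt-Co3, mt-Atp6, mt-Atp8, mt-Nd3 and mt-Nd4l were listed at 0, for a cause that was not tested. Pairs of antisense and coding genes were taken with an overlap of at least 100 exonic bases and at least 300 coding counts. These 88 pairs summed to 276 counts for the antisense and 46819 for the coding genes. The choice set the coding counts high, so the sums alone cannot show the strand setting. Of the 10 genes, 6 overlap 18 other annotated genes, which held 6 counts in all. How reads in shared exons were assigned was not given. The largest share of 50-base stretches found in another gene was 6.55%, for Ctcf.

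All 10 genes, all regulators and all germline paralogs were named. For the lists of other SMC complexes and of loop-anchor factors, the 3 highest in TPM by all exons were named. All tubule, leukocyte and endothelial markers were named, but only a part of the fibroblast, smooth muscle and proliferation markers. The genes, lists, pairs and tests were chosen with earlier results of these data known. No gene was named for a like pattern, since 3 libraries are too few for a correlation.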

Additional observations from a re-analysis of the deposited data

How the results depend on the processing

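The ratios between genes depended on the length they were divided by. Of the 10 places in the order, 2 were kept with the longest coding transcript and 1 with the median coding transcript. With counts without a length, the longest and the median coding transcript, the ratio turned to 1.74, 1.44 and 2.92 for Pds5a/Pds5b, to 1.58, 1.24 and 4.68 for (Stag1+Stag2)/Smc3 and to 2.06, 1.57 and 1.72 for (Pds5a+Pds5b)/Wapl. With the longest and the median coding transcript it turned to 0.719 and 0.827 for Esco1/Esco2. With the median alone, which is 1012 bases for Stag1, it turned to 0.377 for Stag2/Stag1, 1.09 for (Stag1+Stag2)/Rad21 and 0.502 for Pds5a/Stag1. Without a length Nipbl/Smc3 was 0.872, no longer called. Nipbl/Mau2 was 2.23 with the longest and 1.71 with the median, and Wapl/Cdca5 was 5.32 without a length and 2.65 with the median. Among neighbours, Smc3/Wapl turned to 0.896 without a length and 0.751 with the median, was called at 1.17 with the longest, and ranged from 0.986 to 1.13 with 1 replicate left out. Wapl/Smc1a turned to 0.858 with the longest, was called at 1.16 (1.01 to 1.33) without a length and at 1.34 (1.17 to 1.54) with the median, and ranged from 0.969 to 1.08 with 1 replicate left out. Stag2/Nipbl was called at 1.53 with the longest and 2.86 with the median. Ctcf/Stag2 turned to 0.637 without a length and 0.556 with the median. Nipbl/Pds5b turned to 0.820 with the longest and 0.769 with the median, and ranged from 1.00 to 1.22 with 1 replicate left out. Leaving out 1 replicate gave Pds5a/Pds5b ratios of 0.841 to 0.931 and Esco1/Esco2 ratios of 1.22 to 1.65, called without replicate 3 and replicate 2. The median share of protein-coding genes at or below the 10 genes was 93.1% by TPM, 86.3% among expressed genes and 96.9% by CPM. Of the 10 genes the chi-square test called 0 after adjustment with library totals, DESeq2 size factors, no filter, a filter of 10 CPM or any replicate left out. Scaling by library totals or DESeq2 size factors moved no CPM level by more than its SD. The ratios and intervals come from summed counts, on which the pseudocount does not bear, so the alternatives for it say nothing on stability. The 225 to 849 counts behind each of the 10 genes limit single-library differences. No paired analysis was possible because the labels give 1 group. The cause of these moves was not tested.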
